A study of Mus musculus with 4 samples.

Results

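The stromal cells of the mouse aortic arch, fibroblasts and smooth muscle cells, were compared between mice given a viral vector and a high-fat diet and mice given saline and a standard diet. Cells were chosen by their own UMIs, the unique molecular identifiers that count captured RNA molecules. A fibroblast had at least 10 UMIs of Dcn, at least 1 of Pdgfra, none of Ptprc and at most 1 of Myh11. A smooth muscle cell had at least 5 UMIs of Myh11, at least 20 of Acta2 and none of Ptprc or Pdgfra. These gates took 6327 fibroblasts and 1684 smooth muscle cells, together 8011 of the 14148 cells kept in the series. The UMIs of each cell type were summed in each library, and genes are described that moved the same way in both genotype pairs.

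Each of the 4 libraries was a pool of male mice that were 3-month-old at the start. Lox_CTR (genotype label Nrf2Cdh5Lox, that is Nrf2flox/flox mice with a floxed Nfe2l2 gene and no Cre) and KO_CTR (Nrf2Cdh5tKO, the same floxed mice crossed with Cdh5-cre) pooled 4 mice each, which were injected with saline and ate a standard diet. Lox_HFD and KO_HFD had the same genotypes and pooled 3 mice each, which received a single injection of a viral vector, and then a high-fat diet for 21 weeks. Cdh5-cre acts in endothelial cells and part of the leukocytes, so the stroma is not its target. The arches were taken with their branches and the tissue around the vessel. Diet, vector and pool cannot be told apart in this design, and "under HFD" below stands for all of them. There were 2 pooled libraries a side, so p-values do not measure the spread between mice. They rest on a spread between pools that is mostly shared across genes.

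Adventitial fibroblasts build the collagen coat of an artery and secrete chemokines, complement and growth factors, while smooth muscle cells form the contractile media. Both make their own cholesterol when little is taken up from lipoproteins. The enzymes of that pathway, from the mevalonate steps to cholesterol, are switched on together by the transcription factor SREBP2, and the pathway is known to be shut off when cells hold enough sterol. In atherosclerosis some smooth muscle cells are known to lose contractile genes.

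The gated fibroblasts numbered 3568 in Lox_CTR, 1396 in KO_CTR, 408 in Lox_HFD and 955 in KO_HFD, with sums of 5990686 to 44581325 UMIs. For smooth muscle, Lox_CTR gave 1143 cells, KO_CTR 276, Lox_HFD 52 and KO_HFD 213, with sums of 661328 to 17762678 UMIs, so that the 52 cells of Lox_HFD limit every statement on smooth muscle. Library pairs shared 2 to 10 cell barcodes. The gates were compared with markers they did not use. In fibroblasts the 8 fibroblast markers (Col1a1, Col1a2, Col3a1, Lum, Pdgfrb, Gsn, Serpinf1 and Dpt) summed to between 18927 and 28416 CPM, the UMIs of a gene scaled to a common library total, in a library, and the 8 smooth muscle markers (Tagln, Cnn1, Myl9 and others) to between 284 and 452 CPM. In smooth muscle cells the latter summed to between 25257 and 28767 CPM, and the fibroblast markers to between 3080 and 4148 CPM. Each cell type's own markers were lower under HFD. Fibroblasts had 27030 and 28416 CPM in Lox_CTR and KO_CTR against 22161 and 18927 CPM in Lox_HFD and KO_HFD. Smooth muscle cells had 28767 and 27150 CPM against 25257 and 25576 CPM. Some cells of the smooth muscle gate held many Dcn UMIs, as described below. Nfe2l2 stood at 190, 204, 204 and 245 CPM in the fibroblasts of Lox_CTR, KO_CTR, Lox_HFD and KO_HFD. The stroma is not the target of Cre, so these values do not check the genotype labels.

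In fibroblasts 258 of the 13370 genes tested differed under HFD at an adjusted p under 0.05 (edgeR quasi-likelihood test with Benjamini-Hochberg adjustment). Of all genes tested, 92 or 0.688% rose and 166 or 1.24% fell. All 258 moved the same way in both genotype pairs, against 51.9% of all genes tested. The test reads the change that both pairs share, so passing it favours such agreement. This agreement, and that with the second rule below on the same libraries, is no replication. By a second rule, which asked for at least 1.5-fold in both pairs with both exact 95% counting intervals of the ratio on one side of 0, 178 genes or 1.33% were higher and 223 or 1.67% lower, and 226 of the 258 met it. In smooth muscle cells 94 of 10868 genes passed, with 77 or 0.709% higher and 17 or 0.156% lower, and 129 or 1.19% were higher and 43 or 0.396% lower by the second rule. The median log2 fold change of all genes tested was 0.00051 in fibroblasts and -0.01 in smooth muscle cells. With 2 libraries a side, both HFD values lay above both CTR values in 20.1% of genes and below them in 19.7% in fibroblasts, and in 20.7% and 14.9% in smooth muscle cells.

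**Figure D1:**
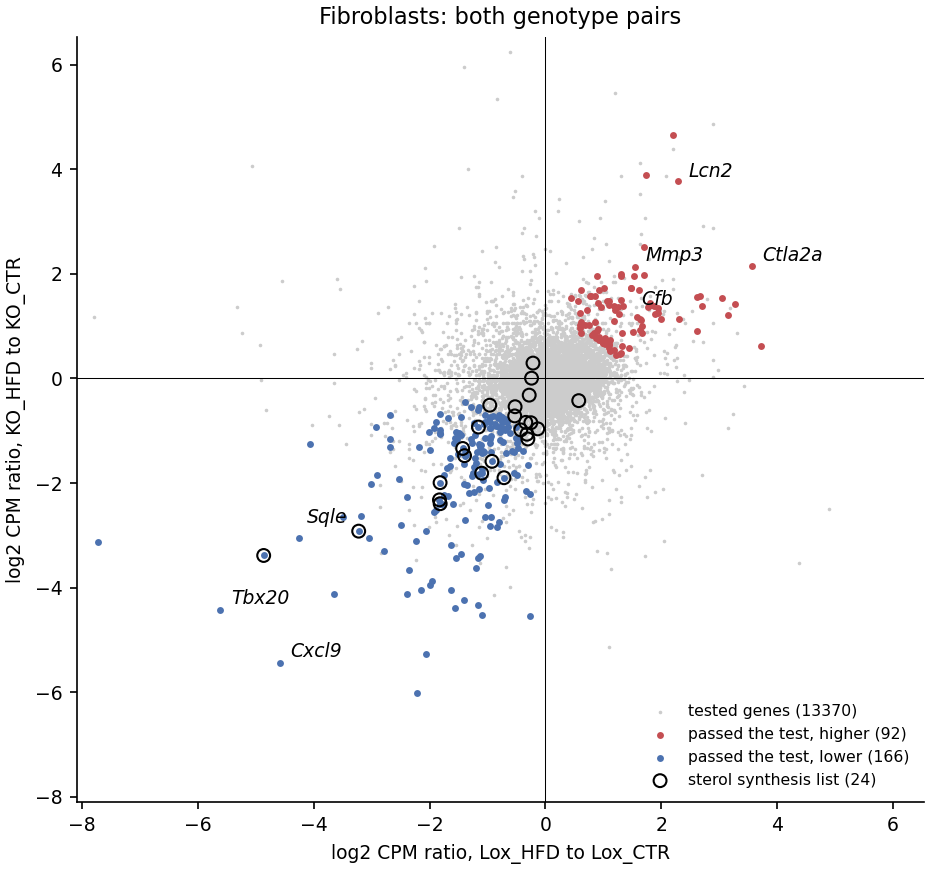
Each point is 1 of the 13370 genes tested in fibroblasts, with the log2 CPM ratio of Lox_HFD to Lox_CTR on the x axis and of KO_HFD to KO_CTR on the y axis. The 92 genes that rose are red, the 166 that fell blue, and the 24 tested sterol synthesis genes are circled, of which 22 have a negative fitted change.

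The sterol synthesis pathway fell in fibroblasts. Of its 25 listed genes 24 could be tested, and 11 of them passed the test as lower and none as higher, where 1.24% of all genes fell. With DESeq2 10 of the 24 passed. The median log2 fold change of the 24 was -0.74, and 22 were negative. In 21 both HFD libraries lay below both CTR libraries, against 19.7% of all genes. The list was drawn up with earlier results of these data known, so that its count is a description. Among the 11 were Hmgcs1, Idi1, Fdps, Fdft1, Sqle, Cyp51 and Msmo1 of the enzymes, the sterol carrier Stard4, and Srebf2, which encodes SREBP2 itself.

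The promoters of 4 of these 11 genes are shown because the members moved together. The sequences are RefSeq's on GRCm38.p6, from 250 bases before to 50 bases after the start of the transcript, written 5′ to 3′ along the gene's strand. Capitals mark every match, on either strand, of the sterol regulatory element TCACNCCAC (reverse GTGGNGTGA), to which SREBP proteins bind, and of the CCAAT box (reverse ATTGG), where the cofactor NF-Y binds.
Hmgcs1 (chr13:119690101-119690400, plus strand): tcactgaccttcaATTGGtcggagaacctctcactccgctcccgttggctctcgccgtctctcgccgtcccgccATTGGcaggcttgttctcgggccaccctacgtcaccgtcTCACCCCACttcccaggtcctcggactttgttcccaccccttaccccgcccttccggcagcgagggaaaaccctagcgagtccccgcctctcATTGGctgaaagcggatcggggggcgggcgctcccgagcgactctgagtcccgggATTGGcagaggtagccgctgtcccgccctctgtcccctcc
Idi1 (chr13:8885356-8885655, plus strand): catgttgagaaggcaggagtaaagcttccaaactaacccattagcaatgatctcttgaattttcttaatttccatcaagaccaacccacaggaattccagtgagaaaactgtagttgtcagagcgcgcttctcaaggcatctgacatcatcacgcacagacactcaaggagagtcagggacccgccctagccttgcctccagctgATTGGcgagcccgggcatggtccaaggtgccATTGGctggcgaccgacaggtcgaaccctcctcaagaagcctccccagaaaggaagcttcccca
Cyp51 (chr5:4104648-4104947, minus strand): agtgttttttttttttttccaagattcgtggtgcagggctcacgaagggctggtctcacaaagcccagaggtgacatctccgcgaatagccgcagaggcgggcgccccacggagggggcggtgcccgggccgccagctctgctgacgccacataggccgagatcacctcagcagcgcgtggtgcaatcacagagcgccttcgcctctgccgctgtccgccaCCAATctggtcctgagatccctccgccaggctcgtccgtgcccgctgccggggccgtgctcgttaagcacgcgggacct
Srebf2 (chr15:82147019-82147318, plus strand): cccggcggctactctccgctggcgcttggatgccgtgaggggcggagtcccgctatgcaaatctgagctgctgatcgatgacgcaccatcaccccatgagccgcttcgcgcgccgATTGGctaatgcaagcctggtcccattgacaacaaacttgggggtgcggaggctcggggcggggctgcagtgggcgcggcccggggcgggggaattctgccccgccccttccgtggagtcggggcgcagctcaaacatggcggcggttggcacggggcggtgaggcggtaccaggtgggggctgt

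Of the 25 listed genes 17 have a promoter in that table, and 16 of the 17 hold a CCAAT box in at least 1 promoter. Counted by promoter, it stood in 16 of 20, or 80%, against 37.4% of all 32851 promoters. Hmgcs1 alone holds the sterol regulatory element as spelled here, against 1.24% of all promoters. Its promoter has 4 CCAAT boxes, that of Idi1 2, and those of Cyp51 and Srebf2 1 each. These letters do not overlap between the motifs, and a match is a description of the sequence only. Sqle, Fdft1, Fdps and Stard4 were among those not in the table.

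Hmgcs1, the enzyme that feeds the mevalonate pathway, stood at 33.5 CPM in Lox_CTR, 77.5 in KO_CTR, 20.4 in Lox_HFD and 20.8 in KO_HFD. Both HFD libraries were below both CTR libraries, with KO_CTR far above the rest, and the log2 fold change was -1.35 ± 0.23 (SE, n = 2 libraries a side, edgeR adjusted p = 0.0029). Idi1, the isomerase that makes the building blocks of the isoprenoid chain interchangeable, was at 25.9, 54.4, 7.34 and 10.4 CPM in the same order. The libraries did not overlap, and its log2 fold change was -2.15 ± 0.21 (edgeR adjusted p = 2.15e-05). Its ratio was -1.82 (95% counting interval -2.29 to -1.38) in the Lox pair and -2.39 (-2.68 to -2.12) in the KO pair.

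Sqle, squalene epoxidase, which makes the first oxygenated step toward sterols, fell further. It had 348 and 284 UMIs in the CTR libraries (7.81 and 12.04 CPM) and 5 and 18 UMIs in the HFD libraries (0.835 and 1.59 CPM), a log2 fold change of -3.004 ± 0.30 (edgeR adjusted p = 2.85e-05). Fdft1, squalene synthase, was at 10.1 and 17.7 CPM in Lox_CTR and KO_CTR and at 2.84 and 3.54 CPM in Lox_HFD and KO_HFD. Cyp51, the lanosterol demethylase, was at 23.6 and 47.2 CPM against 6.68 and 11.9 CPM, again without overlap.

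Srebf2 stood at 42.1 CPM in Lox_CTR, 48.2 in KO_CTR, 18.9 in Lox_HFD and 25.3 in KO_HFD, with a log2 fold change of -1.04 ± 0.18 (edgeR adjusted p = 0.00382). Insig1, which holds SREBP in the endoplasmic reticulum, did not pass, with 39.8, 65.6, 31.9 and 31.3 CPM and an edgeR adjusted p of 0.0815. Its HFD values were below the CTR values. Of the sterol calls named here, those of Hmgcs1, Msmo1, Srebf2 and Stard4 were lost without KO_HFD, those of Srebf2 and Stard4 also without Lox_HFD, and that of Stard4 without KO_CTR, all with unchanged direction. Lss and Acat2 had small positive fitted changes of 0.06 and 0.04.

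KO_CTR held the highest CPM of the list, 691 in sum, against 480 in Lox_CTR, 287 in Lox_HFD and 310 in KO_HFD. Without KO_CTR, 10 of the list still passed as lower with a median of -0.70. Without KO_HFD 6 passed (median -0.90), the lowest count when a library was left out. KO_CTR was also the deepest of the fibroblast sums per cell, with a median of 16879 UMIs a cell against 12578.5, 14292.5 and 11587 in Lox_CTR, Lox_HFD and KO_HFD. With every cell thinned to 3000 UMIs, 10 of 23 testable members passed, and with equal cell numbers 11 of 23.

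**Figure D2:**
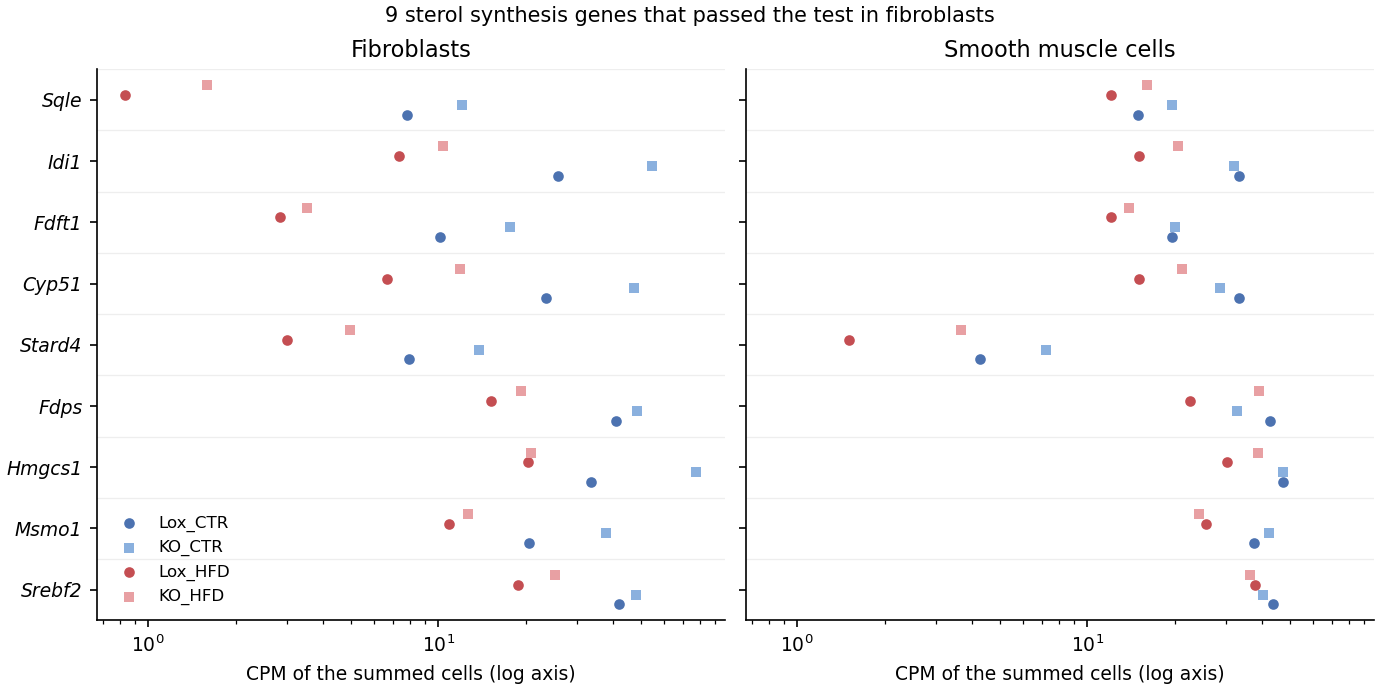
CPM of 9 sterol synthesis genes that passed the test in fibroblasts, 1 point a library, on a log axis, for fibroblasts (left) and smooth muscle cells (right). In fibroblasts the red HFD points lie left of the blue CTR points in every row, while in smooth muscle cells the 4 points of a row mostly lie closer together.

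In smooth muscle cells none of the 24 tested members passed, and 23 had a negative fitted change, with a median of -0.38. By edgeR 3 of them had an unadjusted p under 0.05, and DESeq2 called none. Idi1 was at 33.4 and 32.0 CPM against 15.1 and 20.5 CPM, without overlap (log2 fold change -0.85 ± 0.31, edgeR adjusted p = 0.34). Sqle was at 15.0 and 19.6 CPM in the CTR libraries and at 12.1 and 16.1 CPM in the HFD libraries, which overlap. Both cell types came from the same libraries, and the difference of the HFD effect between them could be tested in 1 fit. The difference passed for 8 of the 24 members (edgeR quasi-likelihood, Benjamini-Hochberg), against 1.67% of all genes in that fit, and 21 of the 24 were less lowered in smooth muscle cells. For Sqle it was 2.64 ± 0.47 (log2, smooth muscle cells minus fibroblasts, edgeR adjusted p = 4.02e-06). Without the term that lets the genotype label act apart in each cell type, the calls of this test fell from 219 to 28 genes and Sqle alone of the 8 kept its call (edgeR adjusted p = 0.0219). The others, Idi1 (0.633), Cyp51 (0.764) and Hmgcs1 (0.764) among them, lost it.

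The genes that handle cholesterol after uptake did not move as a group in fibroblasts. None of the 14 cholesterol efflux genes passed by edgeR, where 5 had an unadjusted p under 0.05, and DESeq2 called 1, the phospholipid transfer protein Pltp. Of the 14 genes 6 were positive and 8 negative, and their median was -0.06. Abca1, the cholesterol exporter, was at 59.0, 75.2, 115 and 107 CPM, higher in both HFD libraries, with an adjusted p of 0.0728 (edgeR). Of the 21 genes of fatty acid synthesis and storage 16 were negative and 5 positive, with a median of -0.21. By edgeR 10 had an unadjusted p under 0.05, and DESeq2 called none. Both HFD libraries lay below both CTR libraries in 10, against 19.7% of all genes, and above them in 4, against 20.1%. Elovl6, the elongase of long-chain fatty acids, alone passed as lower, where 1.24% of all genes fell, at 5.18 and 7.12 CPM against 2.34 and 3.01 CPM. It held its call under 7 of 17 alternatives.

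Among the genes that rose in fibroblasts, Mmp3, the matrix protease stromelysin-1, stood at 529 CPM in Lox_CTR, 353 in KO_CTR, 1542 in Lox_HFD and 1546 in KO_HFD. The HFD libraries were level with each other and both far above the CTR libraries. The log2 fold change was 1.83 ± 0.26 (edgeR adjusted p = 0.000764), and Mmp3 passed under all 18 alternatives in which it was tested, with a log2 fold change of 1.23 to 2.15. No more than 6.76% of its UMIs came from 1 cell in any library. Of the 32 matrix protease and inhibitor genes tested, Mmp3 alone rose and 2 fell, against 0.688% and 1.24% of all genes. Those that fell were Adamtsl2, which regulates microfibrils, and the aggrecanase Adamts4. Adamts4 held its call under 9 of 18 alternatives. Adamtsl2 was at 35.4 and 71.7 CPM against 14.2 and 15.7 CPM (log2 fold change -1.79 ± 0.21, edgeR adjusted p = 0.000101).

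Complement genes leaned upward. Of 21 tested, 16 were positive with a median of 0.37, 2 passed as higher, against 0.688% of all genes, and none passed as lower. Cfb, factor B of the alternative pathway, was at 45.1 CPM in Lox_CTR, 38.2 in KO_CTR, 125 in Lox_HFD and 126 in KO_HFD. These groups lay far apart, with a log2 fold change of 1.59 ± 0.20 (edgeR adjusted p = 0.000161). C2, the protease of the classical pathway, was at 45.5, 33.7, 69.4 and 61.8 CPM (edgeR adjusted p = 0.0479) and lost its call under 9 of 18 alternatives, RLE scaling among them. C3, the most abundant of them, was at 1678, 1532, 2278 and 2003 CPM, which did not overlap but did not pass (edgeR adjusted p = 0.709).

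Cytokine and chemokine genes moved in both directions, 3 of 33 rising, against 0.688% of all genes, and 4 falling, against 1.24%, with a median of -0.24. Cxcl12, the chemokine that binds Cxcr4, stood at 432 CPM in Lox_CTR, 318 in KO_CTR, 928 in Lox_HFD and 841 in KO_HFD (log2 fold change 1.24 ± 0.24, edgeR adjusted p = 0.00894). Both HFD libraries were well above both CTR libraries. Ccl8, a chemokine that draws monocytes, was at 19 and 17.6 CPM against 36.7 and 45.2 CPM. Both of these calls were lost without KO_HFD, with unchanged direction. Lcn2, the siderophore-binding lipocalin, rose from 5.25 and 2.80 CPM to 25.7 and 38.04 CPM, but 52.6% of its Lox_HFD UMIs and 23.7% of its KO_HFD UMIs came from 1 cell each. With the top 1% of cells for each gene left out of every library, its log2 fold change was 1.53 instead of 2.97 and still passed (edgeR adjusted p = 0.016).

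The chemokines that fell included those induced by interferon gamma. Cxcl10 was at 35.2 and 43.9 CPM in the CTR libraries and at 11.7 and 8.32 CPM in the HFD libraries (log2 fold change -2.02 ± 0.21, edgeR adjusted p = 4.35e-05). Cxcl9 had 356 and 819 UMIs against 2 and 9 UMIs, but 796 of the 819 UMIs of KO_CTR, or 97.2%, were in 1 cell. It could not be tested with the top cells left out, since too few UMIs remained. Cxcl14 was at 30.3 and 20.1 CPM against 9.01 and 5.57 CPM, and Cxcl1, the neutrophil chemokine, at 1032 and 1145 CPM against 441 and 633 CPM. The libraries did not overlap for either gene, but 96.3% of the Cxcl14 UMIs of Lox_HFD and 69.8% of those of KO_HFD were in 1 cell each. Cxcl14 lost its call without KO_HFD, and Cxcl1 lost its own under 6 of 18 alternatives. The 40 interferon-stimulated genes tested did not fall as a group, with a median of 0.03. Of them 1 passed as lower, against 1.24% of all genes. It was Ifi27l2a, at 657 and 709 CPM against 313 and 389 CPM.

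Signalling and positional genes also rose. Bmp3, a BMP family member that opposes BMP signalling, was at 10.4 CPM in Lox_CTR, 11.5 in KO_CTR, 40.2 in Lox_HFD and 29.5 in KO_HFD (log2 fold change 1.64 ± 0.19, edgeR adjusted p = 0.000102). The BMP antagonist Chrdl1 (48.1 and 50.04 CPM against 119.5 and 77.1 CPM) rose as well. Of 27 Wnt and BMP pathway genes tested 3 rose and 1 fell, against 0.688% and 1.24% of all genes. The 1 that fell was Rspo1, a Wnt agonist, from 13.8 and 15.2 CPM to 5.34 and 5.49 CPM. Gria4, a glutamate receptor subunit, was at 12.5 and 11.3 CPM against 38.6 and 36.5 CPM, and passed under all 18 alternatives.

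Hox genes record the position of a cell along the body axis, and several were higher under HFD. Of 31 Hox and regional transcription factor genes tested 5 rose, Hoxa7, Hoxb5, Hoxb6, Hoxc6 and Hoxc8, and 4 fell, against 0.688% and 1.24% of all genes. Without Lox_HFD the calls of Hoxb6, Hoxc6 and Hoxc8 were lost, and without KO_HFD those of Hoxb5 and Hoxb6. Hoxa7 was at 4.02 CPM in Lox_CTR, 7.59 in KO_CTR, 24.5 in Lox_HFD and 14.2 in KO_HFD (log2 fold change 1.74 ± 0.29, edgeR adjusted p = 0.00239). Hoxb8, which was not on that list, was at 2.00 and 2.16 CPM against 12.2 and 6.37 CPM, and Pax1, a paired box factor of the trunk, at 8.66 and 10.9 CPM against 42.6 and 23.8 CPM. Lox_HFD was the higher of the HFD libraries for all 3.

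The 4 regional factors that fell were Tbx20, Gata4, Meox1 and Tbx5. Tbx20, a T-box factor of the heart and its valves, had 1458 UMIs in Lox_CTR and 990 in KO_CTR (32.7 and 42.0 CPM), against 4 UMIs in Lox_HFD and 22 in KO_HFD (0.668 and 1.95 CPM), with a log2 fold change of -4.74 ± 0.28 (edgeR adjusted p = 1.05e-07). Gata4, a cardiac zinc finger factor, had 279 and 218 UMIs in the CTR libraries and 0 and 6 in the HFD libraries. The count of 0 in Lox_HFD allows up to 3 UMIs by counting error. Meox1, a homeobox factor, was at 40.1 and 139 CPM against 8.51 and 16.0 CPM, and Tbx5, a T-box factor of the heart, at 3.79 and 4.16 CPM against 1.002 and 0.708 CPM. Wt1, of the epicardium, had 143 and 52 UMIs against 1 and 3. Tcf21, of epicardial fibroblasts, was named after its values were seen and was at 111 and 149 CPM against 32.2 and 28.1 CPM.

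Some markers of mesothelium and atrial muscle were lower along with these factors. Of the 6 mesothelial markers, 2 of the 3 tested fell, against 1.24% of all genes. Those that fell were Msln and Upk3b, and few cells held them. Msln UMIs came from 2 cells of Lox_CTR and 6 of KO_CTR, and Upk3b UMIs from 21 and 6. Msln, Lrrn4, Krt8 and Upk1b were at 0 UMIs in both HFD libraries. The summed level of the 6 was 11.4 to 20.2 CPM in the CTR libraries and 4.601 to 7.85 CPM in the HFD libraries. In Lox_HFD 5 of the 6 were at 0, so that Krt19 alone made up its 7.85 CPM. The 8 atrial muscle markers summed to 12.4 and 46.6 CPM against 6.68 and 6.37 CPM, with Myl7, Nppa and Sln at 0 outside KO_CTR. Of the 3 tested 2 passed as lower, Tnnt2 and Actc1, against 1.24% of all genes. The share of gated fibroblasts with a UMI of Tbx20, Gata4, Wt1 or Tbx5 was 14.2% in Lox_CTR, 28.2% in KO_CTR, 1.72% in Lox_HFD and 2.72% in KO_HFD. Sums over cells do not separate fewer cells of a kind from less RNA per cell, and these were not tested apart. Diet and the extent of tissue dissected with a pool cannot be told apart. Both limits hold for the regional factors, the Hox genes and the heart muscle genes of smooth muscle. The other fibroblast results without the cells with a UMI of Tbx20, Gata4, Wt1 or Tbx5 are given next as values.

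With those cells left out 104 genes passed in place of 258, 55 of them higher, and 103 of the 104 were among the 258. Cells of that kind without a captured UMI of Tbx20, Gata4, Wt1 or Tbx5 would have stayed in the sums. A kept call therefore does not measure their part. The sterol synthesis list kept 11 members lower, with a median of -0.71. Mmp3, Cfb, Cxcl12, Bmp3, Gria4, Hoxa7, Hoxb8, Igf1 and Thbs1 kept their calls. Of the other Hox genes named, Hoxb5 and Hoxc6 kept theirs and Hoxb6 and Hoxc8 lost theirs. Further genes lost their calls with the sign unchanged, among them Chrdl1 and Colgalt2. The log2 fold change of Postn was -0.63 in place of -1.41, that of Egr3 -0.89 in place of -1.60, that of Tgfb1 -0.30 in place of -0.73 and that of Fmod 0.61 in place of 0.87. Cxcl1 moved less, from -1.05 to -0.89, and Rspo1, at -1.02 in place of -1.43, missed the threshold narrowly (edgeR adjusted p = 0.0507).

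**Figure D3:**
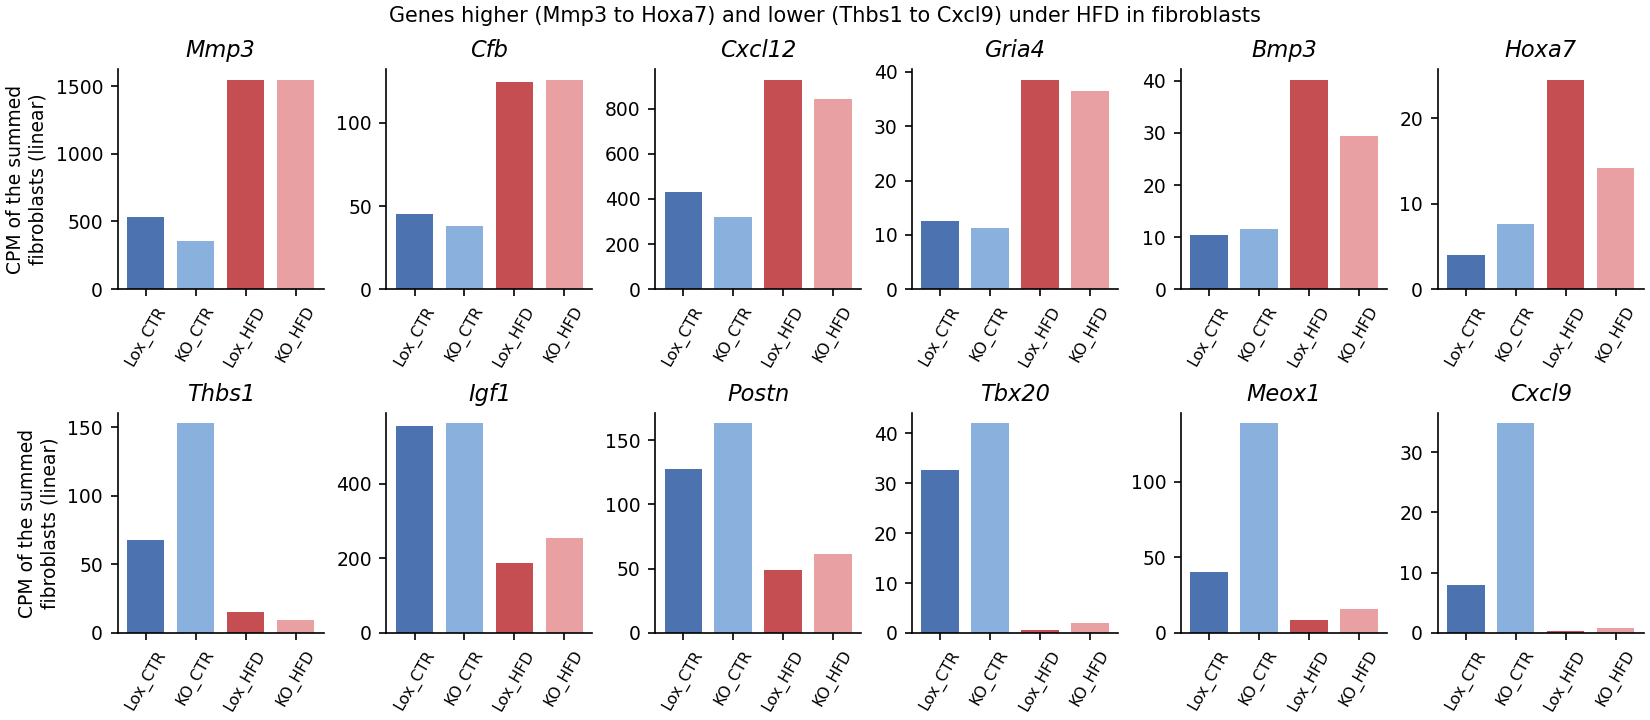
CPM of the summed fibroblasts in each of the 4 libraries for 6 genes that rose (upper row, Mmp3 to Hoxa7) and 6 that fell (lower row, Thbs1 to Cxcl9), 1 bar a library, each panel on its own linear axis from 0. Both HFD bars lie on one side of both CTR bars in every panel, and KO_CTR is the tallest bar for Thbs1, Postn, Tbx20, Meox1 and Cxcl9.

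Several matrix and growth factor genes fell. Thbs1, thrombospondin-1, which activates TGF-beta, was at 67.6 CPM in Lox_CTR, 153 in KO_CTR, 15.2 in Lox_HFD and 9.201 in KO_HFD (log2 fold change -3.14 ± 0.32, edgeR adjusted p = 2.85e-05). Postn, the matricellular protein periostin, was at 128 and 163 CPM against 48.7 and 61.0 CPM, and Tgfb1 at 34.9 and 54.6 CPM against 24.5 and 28.8 CPM. All 3 were lower in both HFD libraries, and they were the calls among 25 TGF-beta response genes, where 1.24% of all genes fell. Tgfb1 held its call under 6 of 18 alternatives. Igf1, insulin-like growth factor, was at 554 and 561 CPM against 187 and 254 CPM (log2 fold change -1.36 ± 0.24, edgeR adjusted p = 0.00345). Without Lox_HFD the call of Igf1 was lost. Ptn, the growth factor pleiotrophin, was at 70.7 and 26.2 CPM against 0.334 and 3.01 CPM. In Ptn 52.9% of the KO_HFD UMIs were in 1 cell.

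Among the 12 genes with the widest falls in both pairs were also Colgalt2, a collagen glycosyltransferase, Chn2, a GTPase-activating protein, Slc16a3, a lactate transporter, and Cnmd, chondromodulin of cartilage. Slc16a3 was at 7.54 and 20.3 CPM against 1.34 and 2.92 CPM, and Chn2 at 4.62 and 12.1 CPM against 0.668 and 1.24 CPM. Colgalt2 was at 4.13 and 5.13 CPM against 0.501 and 0.619 CPM. Cnmd, at 9.40 and 1.65 CPM against 0.835 and 0 CPM, held its call under 10 of 14 alternatives. Its UMIs came from 36 cells in Lox_CTR, 5 in KO_CTR and 1 in Lox_HFD, and 69.2% of those of KO_CTR were in 1 cell. It could not be tested with the top 1% of cells left out. Among the 12 with the widest rises were also the mast cell protease Mcpt4 (1.35 and 0.339 CPM against 4.51 and 5.04 CPM), the cell cycle factor E2f7, Csprs, the neurexin ligand Nxph1 and the monocyte chemokine Ccl12, all under 12 CPM in every library.

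Collagen chain genes had a negative median, with 1 call as lower, against 1.24% of all genes. Of 27 tested 22 were negative, with a median of -0.41, and the gene that passed was Col15a1 of the basement membrane zone, at 134 and 358 CPM against 75.3 and 90.6 CPM (edgeR adjusted p = 0.00382). Col1a1 and Col3a1, the main fibrillar chains, had log2 fold changes of -0.41 ± 0.27 and -0.94 ± 0.27, with edgeR adjusted p of 0.735 and 0.107. Of 16 proteoglycan genes tested 2 rose and 1 fell, against 0.688% and 1.24% of all genes. Fmod (93.2 and 92.9 CPM against 199.6 and 147 CPM) and Prg4, the lubricant of joint surfaces (158 and 87.1 CPM against 233 and 243 CPM), rose and Epyc fell. Fmod and Prg4 each held their call under 12 of 18 alternatives and Epyc under 9 of 18, with its call lost without Lox_CTR, Lox_HFD or KO_HFD. In the fibroblasts without Pi16 the fitted change of Prg4 was -0.31. That set is small, since 1368 of 1396 fibroblasts in KO_CTR and 385 of 408 in Lox_HFD had a Pi16 UMI.

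Stress and early response genes had negative medians in fibroblasts. Of 30 immediate early genes 25 were negative, with a median of -0.36, and 5 fell, Egr2, Egr3, Maff, Nr4a2 and Nr4a3, against 1.24% of all genes. Egr3, an early growth response factor, was at 27.4 and 59.5 CPM against 11.4 and 16.4 CPM (log2 fold change -1.60 ± 0.20, edgeR adjusted p = 0.000164). The abundant Fos had 4995 and 4848 CPM in the HFD libraries, above 4197 and 3999.7 CPM in the CTR libraries, and did not pass (edgeR adjusted p = 0.915). Nr4a2 and Nr4a3 overlapped between the diets, and all 5 lost their call without KO_HFD, with diet alone as a term, and without the cells with a UMI of Tbx20, Gata4, Wt1 or Tbx5. Of 19 heat shock genes 18 were negative and of 21 genes of ER stress 18 were negative. By edgeR none of them was called, and 5 and 3 had an unadjusted p under 0.05. DESeq2 called 1 heat shock gene, Dnajb1, and no ER stress gene. Of 17 clock genes 1 rose, against 0.688% of all genes. It was Nr1d1, at 18.3, 8.44, 31.7 and 25.2 CPM.

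**Figure D4:**
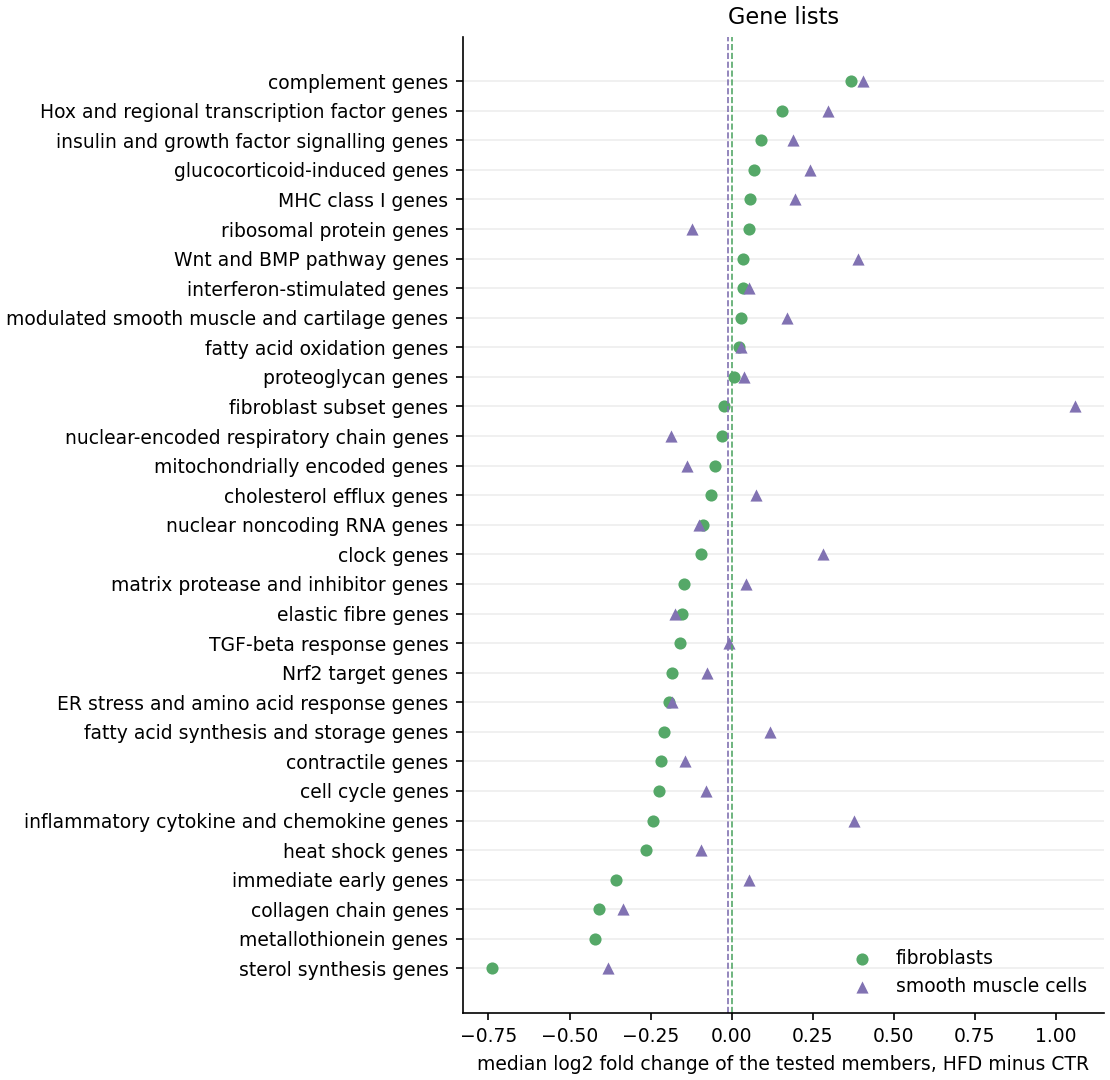
Median log2 fold change (HFD minus CTR) of the tested members of each gene list, with fibroblasts as circles and smooth muscle cells as triangles. Dashed lines mark the median of all genes tested in each cell type, and neither the marker lists nor lists with under 3 tested members are drawn. Of the lists drawn, sterol synthesis has the lowest median in both cell types, and fibroblast subset genes stand at 1.06 in smooth muscle cells.

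Other lists had no call in fibroblasts. The 83 ribosomal protein genes had a median of 0.05, the 20 fatty acid oxidation genes 0.02, the 20 MHC class I genes 0.06 and the 24 Nrf2 target genes -0.18. None of these was called by edgeR or DESeq2, and in the same order 4, 1, 0 and 4 had an unadjusted p under 0.05 in edgeR. The median of the Nrf2 target genes lay below the lower quartile of all genes tested, -0.17, with 18 of the 24 negative and both HFD libraries below both CTR libraries in 12 of 24, against 19.7% of all genes. The 8 macrophage markers were all positive with a median of 0.51, and none passed by edgeR or DESeq2 (3 at an unadjusted p under 0.05). They summed to 215 and 210 CPM in Lox_CTR and KO_CTR and to 193 and 381 CPM in Lox_HFD and KO_HFD, and none was at 0. Endothelial markers summed to 46.6 and 33.2 CPM in Lox_CTR and KO_CTR against 21.5 and 20.2 CPM in Lox_HFD and KO_HFD. Of the 6 tested 2 passed as lower, Pecam1 and Cldn5, against 1.24% of all genes. Pecam1 lost its call under 10 of 18 alternatives and Cldn5 under 3 of 13. In KO_CTR 59.4% of the Cldn5 UMIs were in 1 cell. The part of macrophage and endothelial RNA in the fibroblast results was not tested. Selp, the P-selectin of endothelium and platelets, and Ctla2a ranked among the genes that rose, but both rested on single cells. For Selp 1 cell held 88.9% of the UMIs of Lox_HFD and 1 cell 96.3% of those of KO_HFD. For Ctla2a the values were 95.3% and 78.3%. Ctla2a lost its call with the top 1% of cells left out and with the gate on scaled UMIs. Selp could not be tested under either.

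In smooth muscle cells several genes that rose are known from fibroblasts. Of 12 fibroblast subset genes tested 5 rose, Cd55, Pi16, Clec3b, Ly6c1 and Dpp4, against 0.709% of all genes, and the list's median was 1.06. The 8 general fibroblast markers did not rise as a group there. Of these 3 were positive and 5 negative, with a median of -0.385, and 2 passed as higher, Serpinf1 and Dpt. They summed to 3497 and 4148 CPM in Lox_CTR and KO_CTR against 3405 and 3080 CPM in Lox_HFD and KO_HFD. Pi16, a marker of adventitial fibroblasts, was at 81.1 CPM in Lox_CTR, 35.8 in KO_CTR, 296 in Lox_HFD and 165 in KO_HFD, without overlap (log2 fold change 1.97 ± 0.26, edgeR adjusted p = 2.97e-09). These UMIs sat in few cells. In Lox_HFD 1 of 52 cells had 366 UMIs of Dcn and 183 of Pi16, 93.4% of all Pi16 UMIs of that sum. In KO_HFD 8 of 213 cells with at least 10 UMIs of Dcn held 82.9% of the Pi16 UMIs. In Lox_CTR 73 of 1143 such cells held 26.2% and in KO_CTR 6 of 276 held 1.26%.

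The share of smooth muscle cells with a Pi16 UMI went the other way, with 59.9% in Lox_CTR, 43.8% in KO_CTR, 23.1% in Lox_HFD and 30.5% in KO_HFD, at median depths of 15726, 16449, 12573 and 13060 UMIs. In fibroblasts, which express it, the share was 90.9% to 98.0%. With the cells of at least 10 Dcn UMIs left out, 40 genes passed in place of 94, and the log2 fold change of Pi16 was -0.82 (edgeR adjusted p = 0.438). Cd55, Ly6c1, Clec3b, Igfbp5 and Igfbp6 lost their calls as well, and for Clec3b, Igfbp5 and Igfbp6 the sign turned. Dpp4 could not be tested in that set, and held its call under 4 of 10 alternatives. Scrublet, a doublet caller, marked 0 smooth muscle cells in either HFD library, and whether these cells were doublets was not tested further.

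**Figure D5:**
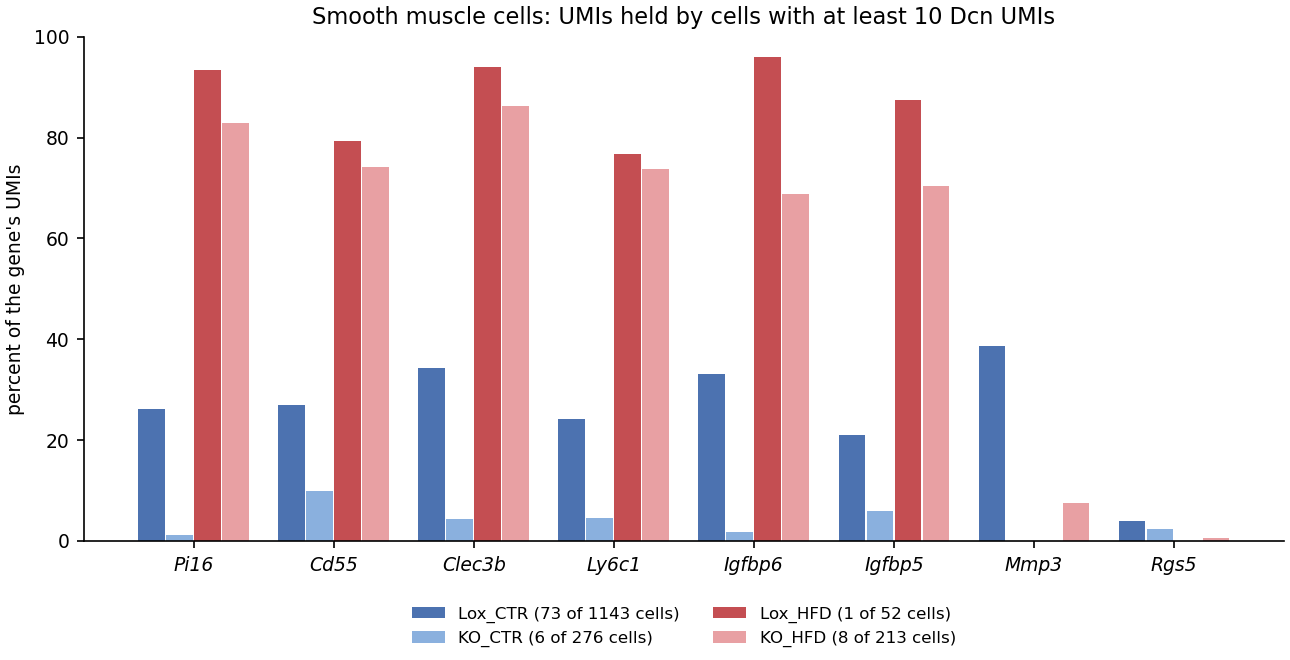
For 8 genes, the percent of a gene's UMIs in the smooth muscle sum that came from the cells with at least 10 UMIs of Dcn, 1 bar a library, on an axis from 0 to 100. For Pi16, Cd55, Clec3b, Ly6c1, Igfbp6 and Igfbp5 both HFD bars stand above both CTR bars, from 68.9 to 95.9, while for Mmp3 and Rgs5 the HFD bars reach at most 7.53.

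Other smooth muscle genes kept their calls without those cells. Rgs5, a regulator of G-protein signalling known from pericytes and smooth muscle, was at 138 CPM in Lox_CTR, 208 in KO_CTR, 425 in Lox_HFD and 389 in KO_HFD (log2 fold change 1.20 ± 0.27, edgeR adjusted p = 0.00471). The groups did not overlap, but 41.3% of the Lox_HFD UMIs were in 1 cell, and the call was lost without Lox_HFD (adjusted p = 0.0516) or without KO_HFD (0.0679). Pcdh11x, a protocadherin, was at 9.06 and 8.57 CPM against 40.8 and 37.0 CPM and passed under 15 of 16 alternatives. Rgs17 was at 12.3 and 4.28 CPM against 48.4 and 26.8 CPM. Vcam1, the adhesion molecule that holds leukocytes, was at 63.0 and 34.05 CPM against 90.7 and 158 CPM, and Mmp3 at 31.6 and 14.2 CPM against 49.9 and 68.2 CPM. Smpd3, a sphingomyelinase, was at 1.75 and 1.58 CPM against 68.0 and 6.60 CPM, but 44 of its 45 UMIs in Lox_HFD were in 1 cell and it could not be tested without the cells rich in Dcn. Vcam1 held under 10 and Mmp3 under 9 of 16 alternatives, and 69.7% of the 33 Mmp3 UMIs and 41.7% of the 60 Vcam1 UMIs of Lox_HFD were in 1 cell.

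Of the 17 genes that fell in smooth muscle cells, Actc1, cardiac alpha-actin, had the smallest adjusted p. It had 3080 UMIs in Lox_CTR, 732 in KO_CTR, 6 in Lox_HFD and 39 in KO_HFD, or 173, 165, 9.07 and 14.3 CPM. The log2 fold change was -3.77 ± 0.32 (edgeR adjusted p = 2.41e-19), and it passed under all 16 alternatives. Corin, a protease of heart muscle that activates natriuretic peptide, was at 40.8 and 4.73 CPM against 1.51 and 1.47 CPM, so that Lox_CTR alone stood high, and its call was lost without Lox_CTR. Myoz2, a protein of the muscle Z-line, was at 48.6 and 58.8 CPM against 10.6 and 30.4 CPM, and Tnnt2, cardiac troponin T, at 194 and 99.0 CPM against 118 and 52.8 CPM, which overlap (edgeR adjusted p = 0.0899). Without Lox_HFD the call of Myoz2 was lost. Bex4 was at 42.2 and 33.6 CPM against 9.07 and 9.53 CPM, and held under 13 of 16 alternatives. The defining atrial markers Myl7, Nppa and Sln had 0 to 11 UMIs in any of these sums, and the 8 atrial muscle markers together 380 and 279 CPM against 142 and 78.4 CPM. What part heart muscle near the arch had in this was not tested.

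Within the gated smooth muscle cells the contractile program did not fall as a group. Of 27 contractile genes tested none fell by edgeR and 1 rose (Rgs5), against 0.709% of all genes. By edgeR 3 had an unadjusted p under 0.05, and the median was -0.15. Acta2 and Myh11, which the gate used, are left aside. The gate set a minimum of UMIs for both, so cells that had lost either did not enter the sums. The contractile list here and the list of modulated smooth muscle below describe only cells that kept both. Whether other smooth muscle cells had lost the contractile program was not tested. Tagln, transgelin, had a log2 fold change of -0.17 ± 0.41 and Cnn1, calponin, of -0.27 ± 0.32, both with edgeR adjusted p of 1. The 21 genes of modulated smooth muscle and cartilage had a median of 0.17, and 3 rose, Ly6a, Lcn2 and Vcam1, against 0.709% of all genes. The cells with at least 10 Dcn UMIs held 73.1% and 75% of the Ly6a UMIs of Lox_HFD and KO_HFD, and without them its log2 fold change was -0.00048 in place of 1.71. Of the 61 Lcn2 UMIs of KO_HFD 75.4% were in 1 cell, and its call was lost without the top 1% of cells (edgeR adjusted p = 0.833). Immunoglobulin kappa Igkc, a B cell transcript, had 147 and 104 UMIs in the CTR sums and 0 and 1 in the HFD sums. The 6 B cell markers summed to 11.8 and 28.2 CPM against 3.02 and 3.66 CPM there.

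Between the cell types the HFD effect differed for 44 of the 100 genes named by rule. These genes were chosen for passing in one of the cell types, which favours a difference, and over all 13132 genes of that fit 219 or 1.67% differed. The smallest p belonged to Bmp3, which rose in fibroblasts and in smooth muscle cells stood at 52.9 CPM in Lox_CTR, 61.8 in KO_CTR, 30.2 in Lox_HFD and 31.1 in KO_HFD. That is a log2 fold change of 1.64 in fibroblasts and -0.96 in smooth muscle cells, the latter not called alone (edgeR adjusted p = 0.0692), and a difference of -2.58 ± 0.25 (edgeR adjusted p = 1.18e-21). Rgs5 differed by 2.47 ± 0.26, and in fibroblasts it fell from 10.5 and 4.88 CPM to 2.84 and 2.74 CPM. That fall rests on 17 UMIs in Lox_HFD and 31 in KO_HFD, and its call held under 8 of 17 alternatives. Cd55 differed by 2.69, Tbx20 by 4.30 and Nr4a2 by 1.88. Without the genotype term in each cell type Bmp3 had an adjusted p of 0.000652 and Nr4a2 lost its call (0.509).

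The share of the gated cells among kept cells was lower under HFD for fibroblasts. It was 45.2% (exact 95% binomial interval 44.1 to 46.3%) in Lox_CTR, 47.0% (45.2 to 48.8%) in KO_CTR, 40.0% (37.0 to 43.1%) in Lox_HFD and 42.1% (40.1 to 44.2%) in KO_HFD. Both HFD shares lay below both CTR shares, but the intervals of KO_HFD and Lox_CTR touched. For smooth muscle cells the shares were 14.5% (13.7 to 15.3%), 9.29% (8.27 to 10.4%), 5.10% (3.83 to 6.63%) and 9.40% (8.23 to 10.7%), which overlap between the diets. These intervals cover counting error only, and the exact permutation test over libraries gave p = 0.333 for fibroblasts, the smallest 2 libraries a side can give, and p = 0.667 for smooth muscle cells. The gates are counted in UMIs and so move with depth, and with gates on UMIs scaled to depth the fibroblast shares were 40.8%, 43.9%, 38.1% and 38.1%.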

How the data were processed

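Single cells of 4 pooled libraries were profiled by 10x 3′ sequencing. The deposited files hold counts, that is UMIs per gene and cell, which the authors made with Cell Ranger 6.1.2 on mm10. No group had been merged. The files list 31053 genes and no annotation of cells was used.

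A barcode entered when it showed 200 to 6000 genes and no more than 15% of its UMIs were mitochondrial, which left 14148 of 15599. Genes, lists and members were chosen with earlier results of these data known. Counts of the gated cells were summed per library and tested with the edgeR 4.0.16 quasi-likelihood test (R 4.3.3, limma 3.58.1) with genotype label and diet as terms, TMM factors, edgeR's filter on low counts and Benjamini-Hochberg adjustment. The fit has 1 residual degree of freedom and borrows its spread across genes. The shared spread weighs as 15.4 degrees of freedom in fibroblasts and 153 in smooth muscle cells. A fit over both cell types, with the library as a term, tested the difference of the diet effect. DESeq2 1.42.0 was an alternative. The fit was also run on simulated data with a spread common to all genes and no genotype effect. Those settings are simpler than these data, so that run is no check of the calls here.

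Named genes were, in each cell type, the 12 higher and 12 lower with the largest change in the weaker genotype pair among those that passed with at least 50 UMIs, then the members of each list that passed. Pax1, Tcf21, Pltp, Dnajb1 and members given without passing were named after their values were seen. Some genes that the rule names are not reported here. Ratio intervals are exact binomial ones and, like share intervals, cover counting error only, and a count of 0 is read as up to 3. Alternatives changed the scaling, the filter, the model, the cells and the libraries. Leaving out the top 1% of cells for each gene, cells with 10 Dcn UMIs or more, and cells with a UMI of Tbx20, Gata4, Wt1 or Tbx5 were chosen after seeing the data. Scrublet marked 10 of 1020 and 11 of 2266 kept cells in Lox_HFD and KO_HFD and 183 and 61 in Lox_CTR and KO_CTR. Sequences are RefSeq's.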

Additional observations from a re-analysis of the deposited data

Results flagged for a closer look

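The effect of HFD differed between smooth muscle cells and fibroblasts for 44 of the 100 genes named by rule, which marked them for a closer look. Over all genes in that fit 1.67% differed. The 100 genes were chosen for passing in either cell type, which favours a difference, so the 2 shares are not alike. The difference is that of the log2 fold changes (smooth muscle cells minus fibroblasts) and was tested in 1 edgeR quasi-likelihood fit with Benjamini-Hochberg adjustment. Without a separate genotype term for each cell type 13 of the 44 passed, so most of these differences depend on that term.

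The difference was above 0 for 38 genes. Among genes lower in fibroblasts it was 4.53 for Ptn, 4.30 for Tbx20, 2.97 for Slc16a3, 2.71 for Thbs1, 2.31 for Cxcl10, 1.56 for Enpp1, 1.07 for Postn and 0.80 for Col15a1. For the sterol synthesis genes named by rule it was 2.64 for Sqle, 1.51 for Fdft1 and 1.22 for Cyp51. For immediate early genes it was 1.99 for Egr3, 1.88 for Nr4a2, 1.73 for Nr4a3 and 1.42 for Maff. For Dact2 it was 3.18, but in smooth muscle cells Dact2 had 3, 0, 1 and 15 UMIs in Lox_CTR, KO_CTR, Lox_HFD and KO_HFD, too few to be tested there alone, with 12 of the 15 in 1 cell. Its difference was not called without the genotype term (edgeR adjusted p = 0.112).

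Among genes higher in smooth muscle cells it was 3.16 for Dpp4, 2.69 for Cd55, 2.15 for Igfbp6, 1.94 for Pi16, 1.91 for Igfbp5, 1.58 for Ly6c1, 1.42 for Ly6a and 1.37 for Ccl7. It was 2.59 for Smpd3, 2.56 for Tnfaip2, 2.55 for Lrrn4cl, 2.50 for Dhx58os, 2.43 for Ptgs1 and 2.30 for Emilin2. In the smooth muscle cells of Lox_HFD 1 cell held 97.8% of the UMIs of Smpd3, 90% of those of Tnfaip2 and of Ptgs1, 100% of those of Lrrn4cl and 88.9% of those of Emilin2. Dhx58os had 4 UMIs there. It was 2.47 for Rgs5, 2.16 for Rgs17, 1.35 for Vcam1, 1.21 for Adamtsl1, 0.99 for Efemp1 and 0.82 for Zbtb16. In the HFD sums of smooth muscle cells most UMIs of Pi16, Cd55, Clec3b, Igfbp6, Igfbp5, Ly6c1 and Ly6a were in cells with at least 10 Dcn UMIs. For Ccl7 1 cell held 13 of 20 UMIs in Lox_HFD and 83 of 120 in KO_HFD. Without the cells rich in Dcn the smooth muscle change was -0.82 for Pi16, -0.31 for Igfbp6, -0.047 for Igfbp5, -0.00048 for Ly6a and -0.23 for Ccl7. Cd55 and Ly6c1 lost their calls there with unchanged sign, and Dpp4 could not be tested. The difference between cell types was not tested without those cells. In smooth muscle cells the call of Dpp4 held under 4 of 10 alternatives. Its difference was not called without the genotype term (edgeR adjusted p = 0.121).

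The difference was below 0 for 6 genes, among them -2.58 for Bmp3, -1.42 for Ablim1, -1.03 for Ptgfrn, -5.10 for Igkc and -9.04 for Ifit1. Ifit1 had no UMI in either HFD sum of smooth muscle cells, so its value depends on the prior count and is no bound.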

How the results depend on the processing

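The genotype label paired the libraries in the reported fit, as a term, and the labels carry no replicate numbers that could pair them otherwise. In fibroblasts 258 genes passed. DESeq2 called 130, diet alone as a term 71, no filter 519, a stricter filter 487, equal cell numbers 153, fibroblasts without Pi16 162 and fibroblasts without Tbx20, Gata4, Wt1 or Tbx5 104, and leaving out a library 71 to 878. The sterol synthesis genes called lower numbered 6 with diet alone, 3 without Pi16 and 6 to 15 without a library, with a median of -1.14 without Pi16 and -1.03 to -0.70 without a library. By the pairwise rule higher and lower genes numbered 98 and 100 in thinned cells, 113 and 144 in equal numbers and 105 and 70 without Pi16, and 119 were lower without Tbx20, Gata4, Wt1 or Tbx5. In smooth muscle cells 94 passed, against 37 with RLE factors, 18 with DESeq2, 18 with diet alone, 24 with a 10% mitochondrial limit, 1 in thinned cells, 33 in equal numbers, 25 without the top 1% of cells, 40 without cells of 10 Dcn UMIs and 42 to 145 without a library. Their sterol median was -0.56 in thinned cells and -0.79 to -0.26 without a library. Pairwise counts there were 42 and 9 in thinned cells and 53 and 24 in equal numbers, and 82 were higher without the top 1%. The difference between cell types passed for 219 genes, and for 28 without the genotype term. Gates scaled to depth gave fibroblast shares of 40.8%, 43.9% and 38.1% in Lox_CTR, KO_CTR and KO_HFD and a smooth muscle share of 11.8% in KO_HFD. With RLE factors the list calls became 1 for complement and 1 for endothelial markers in fibroblasts, and in smooth muscle cells 1 for glucocorticoid-induced, complement and Wnt and BMP genes, 2 for inflammatory genes, and 0 for matrix protease, interferon, immediate early and Hox genes and fibroblast markers. Signs turned without Pi16 for Cilp (0.45), Egr2 (0.068), Nr4a2 (0.45), Prg4 (-0.31) and Tgfb1 (0.27), and in smooth muscle cells without the top 1% for Ccl7 (-0.13), Clec3b (-0.011) and Dpt (-0.63). Without cells of 10 Dcn UMIs they turned for Ccl7 (-0.23), Clec3b (-0.65), Dpt (-1.50), Igfbp5 (-0.047), Igfbp6 (-0.31), Ly6a (-0.00048) and Pi16 (-0.82), without Lox_HFD for Dpt (-0.053 to 2.20 without a library) and Grem1 (-0.85 to 3.55), and as a mean over cells in the Lox pair for Ccl7 (-0.012). The cause was not tested. The 52 smooth muscle cells of Lox_HFD limit depth most. Fibroblasts without Pi16 were few as well, since 1368 of 1396 in KO_CTR and 385 of 408 in Lox_HFD had a Pi16 UMI.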
